A study of Mus musculus with 8 samples.

Results

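The 47 genes described here drive or restrain the cell cycle. They were taken by name from a table of 54532 mouse genes. They fall into 5 cyclins and kinases of G1, 4 genes of the step from G1 to S, 10 genes of DNA replication, 22 genes of G2 and mitosis, 5 cyclin-dependent kinase inhibitors (the Cdkn genes) and the nuclear lamina gene Lmnb1. RNA sequencing measured them at day 7 in 8 libraries of cultured cardiac fibroblasts from mice, cells that make the matrix of the heart. Cells overexpressed EphrinB2, the product of Efnb2 and a ligand that Eph receptors on neighbouring cells bind, or carried a vector as control. Each kind of cell was labelled osteogenic differentiation, called osteogenic medium here although the labels name no medium for it, or complete medium. That gave 4 groups of 2 libraries: EphrinB2 osteogenic, EphrinB2 complete, vector osteogenic and vector complete. The sources used here do not give the strain, age, sex, vector or make-up of the media. They do not say whether partner libraries are separate cultures either, so every p-value is set against a spread between libraries that may be technical alone.

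A dividing cell passes from G1 through S, where DNA is copied, and G2 into mitosis. D-type cyclins with Cdk4 and Cdk6, then E-type cyclins with Cdk2, inactivate the retinoblastoma protein and free E2F factors, which switch on genes of DNA replication. Later the DREAM and MuvB complexes, with B-Myb and FoxM1, switch genes of G2 and mitosis off in resting cells and on in dividing ones. The Cdkn1 inhibitors block several cyclin-kinase pairs, and the Cdkn2 inhibitors block Cdk4 and Cdk6. Cardiac fibroblasts rarely divide in the healthy heart and divide readily in culture.

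Values are FPKM, fragments scaled by exon length and by counted reads, which can be compared between genes of different length. Fold changes are differences of log2(FPKM + 1), which understates the change of genes near or below 1 FPKM. Genes are called risen or fallen where the adjusted p of limma's moderated test, fitted over all 12994 genes with at least 1 FPKM in at least 2 libraries, was below 0.05. Of the 47 genes, 46 were tested. Kif23 reached 1 FPKM in only 1 library. Shares of all genes that passed, rose or fell are by adjusted p. No such share is given beside counts of genes with an unadjusted p below 0.05. The libraries held between 16493963 and 20550770 counted reads, as estimated from the steps between low FPKM values.

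Efnb2 followed the labels within each medium. It had 5.02 and 18.3 FPKM in EphrinB2 osteogenic libraries and 31.3 and 32.9 FPKM in EphrinB2 complete libraries, against 1.39 and 1.27 FPKM in vector osteogenic and 6.30 and 5.56 FPKM in vector complete libraries. EphrinB2 osteogenic replicate 1, with the lowest Efnb2 of the EphrinB2 libraries, and EphrinB2 complete replicate 2 stood apart from their partners. On the first principal component, which held 59.6% of the variance, they lay at 63.3 and -50.5, while their partners lay at 24.5 and -22.9. All 9 fibroblast markers reached 1 FPKM in every library, with a summed level of 2367 to 2720 FPKM in EphrinB2 osteogenic and 3332 to 4022 FPKM in EphrinB2 complete libraries, and 2238 to 2284 FPKM in vector osteogenic against 3198 to 3248 FPKM in vector complete libraries. Among these 9, 1 rose and 2 fell with osteogenic medium in each kind of cell. Of all genes tested, 6.36% rose and 5.44% fell in EphrinB2 cells, and 4.41% rose and 3.11% fell in vector cells. The medians of the 9 were 0.02 in EphrinB2 and -0.05 in vector cells on the log2 scale. Col1a1 had 281 to 433 FPKM in the 4 osteogenic libraries against 1422 to 2087 FPKM in the 4 complete ones, whereas Dcn had 612 to 801 FPKM in the osteogenic against 118 to 232 FPKM in the complete libraries. Every library also showed all 13 macrophage markers at 1 FPKM or more, whose summed level was 4131 to 8348 FPKM in EphrinB2 osteogenic and 866 to 1797 FPKM in EphrinB2 complete libraries, and 4646 to 4872 FPKM in vector osteogenic against 1876 to 2138 FPKM in vector complete libraries. The 5 endothelial markers summed to at most 12.1 FPKM in a library, the 3 smooth muscle markers to at most 4.94 FPKM and the 5 cardiomyocyte markers to at most 15.4 FPKM. Tnnt2, the cardiomyocyte marker that passed the filter, had 5.47 to 14.8 FPKM in the 4 osteogenic against 0.478 to 0.771 FPKM in the 4 complete libraries and rose in both kinds of cell (log2 fold changes of 2.80 and 2.12 in EphrinB2 and vector cells). Its part in the results below was not tested. In bulk RNA, fewer dividing cells and less of these RNAs per cell cannot be told apart.

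The promoters of 7 genes are shown because the mitotic genes moved together with the medium. The first 5 belong to mitotic genes that fell in EphrinB2 cells, of which Top2a, Cdc20 and Plk1 also fell in vector cells. Mcm5 is a replication gene that did not pass the test. Cdkn2b is the inhibitor that rose in EphrinB2 cells and did not pass in vector cells. Each is the 250 bases before the RefSeq start site on GRCm38.p6, written 5′ to 3′ on the gene's own strand. Their places are Mki67 chr7:135716380-135716629 (-), Top2a chr11:99024190-99024439 (-), Cdc20 chr4:118437344-118437593 (-), Plk1 chr7:122159185-122159434 (+), Kif11 chr19:37376132-37376381 (+), Mcm5 chr8:75109259-75109508 (+) and Cdkn2b chr4:89311033-89311282 (-). Capitals mark 3 motifs searched on both strands. They are the CCAAT box (CCAAT or ATTGG), which the factor NF-Y binds, the CHR element (TTTGAA, its reverse complement TTCAAA, or TTCGAA), to which MuvB complexes bind, and an E2F motif (TTTCGCGC, TTTGGCGC or their reverse complements). In Mcm5 the E2F matches of opposite strands overlap and are read as 1 run of capitals.
Mki67: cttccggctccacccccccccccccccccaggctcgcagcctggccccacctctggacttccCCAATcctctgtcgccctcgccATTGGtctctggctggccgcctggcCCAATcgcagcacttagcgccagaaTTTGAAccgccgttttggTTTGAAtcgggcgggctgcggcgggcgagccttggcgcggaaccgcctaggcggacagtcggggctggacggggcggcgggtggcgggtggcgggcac
Top2a: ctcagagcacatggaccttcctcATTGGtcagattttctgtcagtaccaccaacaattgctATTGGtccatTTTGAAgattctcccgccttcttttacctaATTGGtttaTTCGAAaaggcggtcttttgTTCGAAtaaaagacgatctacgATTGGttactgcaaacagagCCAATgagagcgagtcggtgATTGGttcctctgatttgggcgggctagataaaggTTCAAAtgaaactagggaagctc
Cdc20: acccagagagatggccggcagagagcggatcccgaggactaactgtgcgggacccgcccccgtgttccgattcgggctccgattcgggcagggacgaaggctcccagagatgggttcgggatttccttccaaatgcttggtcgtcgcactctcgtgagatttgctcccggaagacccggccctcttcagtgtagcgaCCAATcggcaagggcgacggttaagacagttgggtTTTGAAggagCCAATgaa
Plk1: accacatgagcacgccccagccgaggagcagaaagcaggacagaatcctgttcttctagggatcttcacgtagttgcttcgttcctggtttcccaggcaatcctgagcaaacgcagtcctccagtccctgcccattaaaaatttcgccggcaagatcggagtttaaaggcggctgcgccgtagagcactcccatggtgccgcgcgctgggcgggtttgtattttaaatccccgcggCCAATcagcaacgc
Kif11: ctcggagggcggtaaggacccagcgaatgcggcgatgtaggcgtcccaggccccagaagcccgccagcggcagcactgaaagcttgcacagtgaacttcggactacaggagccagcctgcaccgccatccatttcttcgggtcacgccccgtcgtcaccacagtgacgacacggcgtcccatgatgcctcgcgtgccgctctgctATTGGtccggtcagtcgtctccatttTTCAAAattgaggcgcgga
Mcm5: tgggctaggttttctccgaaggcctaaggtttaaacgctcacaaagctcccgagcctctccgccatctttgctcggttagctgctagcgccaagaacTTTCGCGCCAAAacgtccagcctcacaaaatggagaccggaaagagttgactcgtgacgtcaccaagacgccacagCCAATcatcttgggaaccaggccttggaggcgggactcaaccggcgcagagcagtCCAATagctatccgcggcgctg
Cdkn2b: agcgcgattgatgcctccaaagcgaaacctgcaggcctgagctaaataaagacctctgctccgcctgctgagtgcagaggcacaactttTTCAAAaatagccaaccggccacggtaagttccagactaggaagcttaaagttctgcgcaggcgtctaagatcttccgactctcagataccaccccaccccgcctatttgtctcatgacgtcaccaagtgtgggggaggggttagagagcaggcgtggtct

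Of the 47 genes, 38 had an entry among the RefSeq promoters. At least 1 CCAAT box stood in 16 of 18 mitotic promoters (88.9%), in 8 of 9 replication promoters (88.9%) and in 1 of 5 inhibitor promoters (20%), beside 37.5% of the 27025 genes with a promoter. A CHR element stood in 8 of 18 mitotic (44.4%), 2 of 9 replication (22.2%) and 1 of 5 inhibitor promoters (20%), beside 19.6% of all. All 8 mitotic promoters with a CHR element also held a CCAAT box, a pair found in 7% of all promoters. At least 2 CCAAT boxes stood in 9 of 18 mitotic and 5 of 9 replication promoters, beside 11.5% of all. The E2F motif stood in 2 of 9 replication promoters, those of Mcm5 and Mcm6, and in 1 of 18 mitotic promoters, that of Cdk1, beside 0.759% of all. Top2a held the most matches, with 6 CCAAT boxes and 4 CHR elements. Mki67 had its CHR elements at positions -116 and -98 before the start site. Cdc20 and Kif11 had theirs at -18 and -19. These positions hold for the RefSeq start site only. The bases just after it were found in no GENCODE transcript of Mki67, Kif11 or Mcm5. The end of the Cdc20 window lies within the gene as GENCODE places it. The promoters of Ccnd1, Ccnd2, Ccne2, Mcm4, Ccna2, Aurkb, Kif20a, Tpx2 and Lmnb1 were not analysed here. A match is a description of the letters and not of a bound site.

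**Figure D1:**
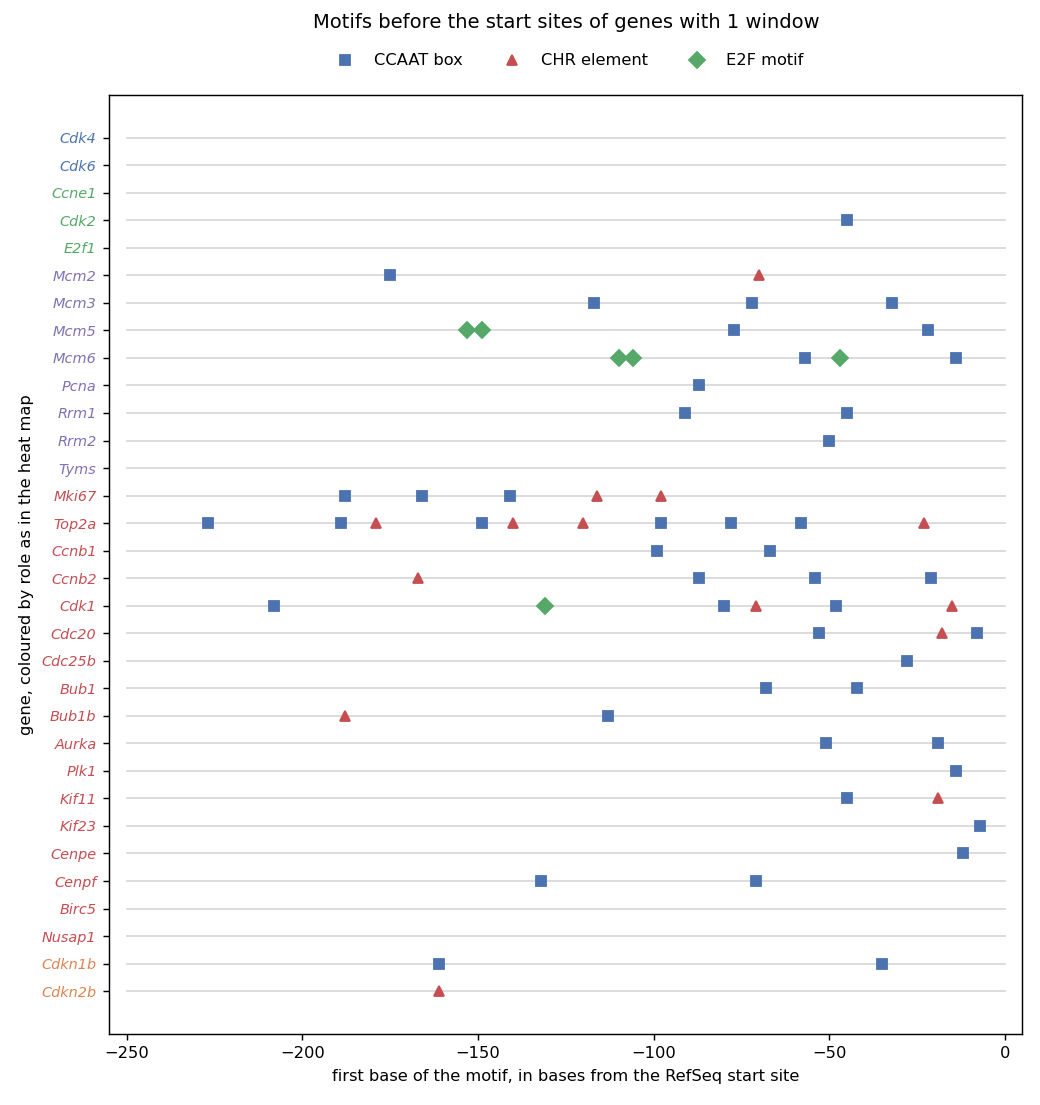
Motif matches in the 250 bases before the RefSeq start site of the 32 genes with 1 promoter window, 1 row a gene. The x axis is the first base of the match relative to the start site, squares are CCAAT boxes, triangles CHR elements and diamonds E2F motifs; mitotic (red) and replication (purple) rows mostly hold squares, and triangles are mostly in red rows.

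Osteogenic medium went with lower mitotic genes in both kinds of cell. In EphrinB2 cells, 17 of the 46 tested genes fell and Cdkn2b alone rose, where 5.44% of all genes tested fell and 6.36% rose. The median of the 46 was -0.57, that of all genes 0.03. In vector cells 10 fell and 0 rose, where 3.11% of all genes tested fell and 4.41% rose. The median of the 46 was -0.50, that of all genes -0.02. The mitotic genes held most of the calls, with 14 of 21 tested in EphrinB2 cells and 9 of 21 in vector cells. Of these 21, 18 were lower in both osteogenic than in both complete libraries in EphrinB2 cells, where 23.6% of all genes were, and 20 in vector cells, where 38.8% of all genes were. All 10 genes that fell in vector cells also fell in EphrinB2 cells, where they were 10 of the 18 called. Both comparisons use different libraries and share the estimate of the spread. The 10 were Top2a, Ccna2, Ccnb1, Cdc20, Plk1, Prc1, Kif20a, Tpx2, Nusap1 and Lmnb1.

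The calls depended on which libraries set the spread. Without both libraries that stood apart, here and in all passages below, each EphrinB2 group kept 1 library. The spread then came from the vector libraries alone. An adjusted p for EphrinB2 cells in that setting measures no spread among EphrinB2 libraries, and that for vector cells nearly repeats the vector libraries alone. With the EphrinB2 libraries alone, 0 of the 46 passed in EphrinB2 cells (20 had an unadjusted p below 0.05), where 1.18% of all genes tested passed. With the vector libraries alone, 27 were called lower and 3 higher in vector cells, where 22.1% and 18.5% of all genes tested were. Without both libraries that stood apart, 22 were called lower and 2 higher in EphrinB2 cells, where 29.7% of all genes passed. The 22 include all 10 genes that fell in both kinds of cell. Leaving out any 1 vector library left 0 of the 10 calls in vector cells (12 to 19 of the 46 had an unadjusted p below 0.05), where 1.3% to 1.6% of all genes passed. It left 9 of the 18 calls in EphrinB2 cells, where 5.54% to 5.9% of all genes passed. All 28 calls kept their direction in each of these settings.

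**Figure D2:**
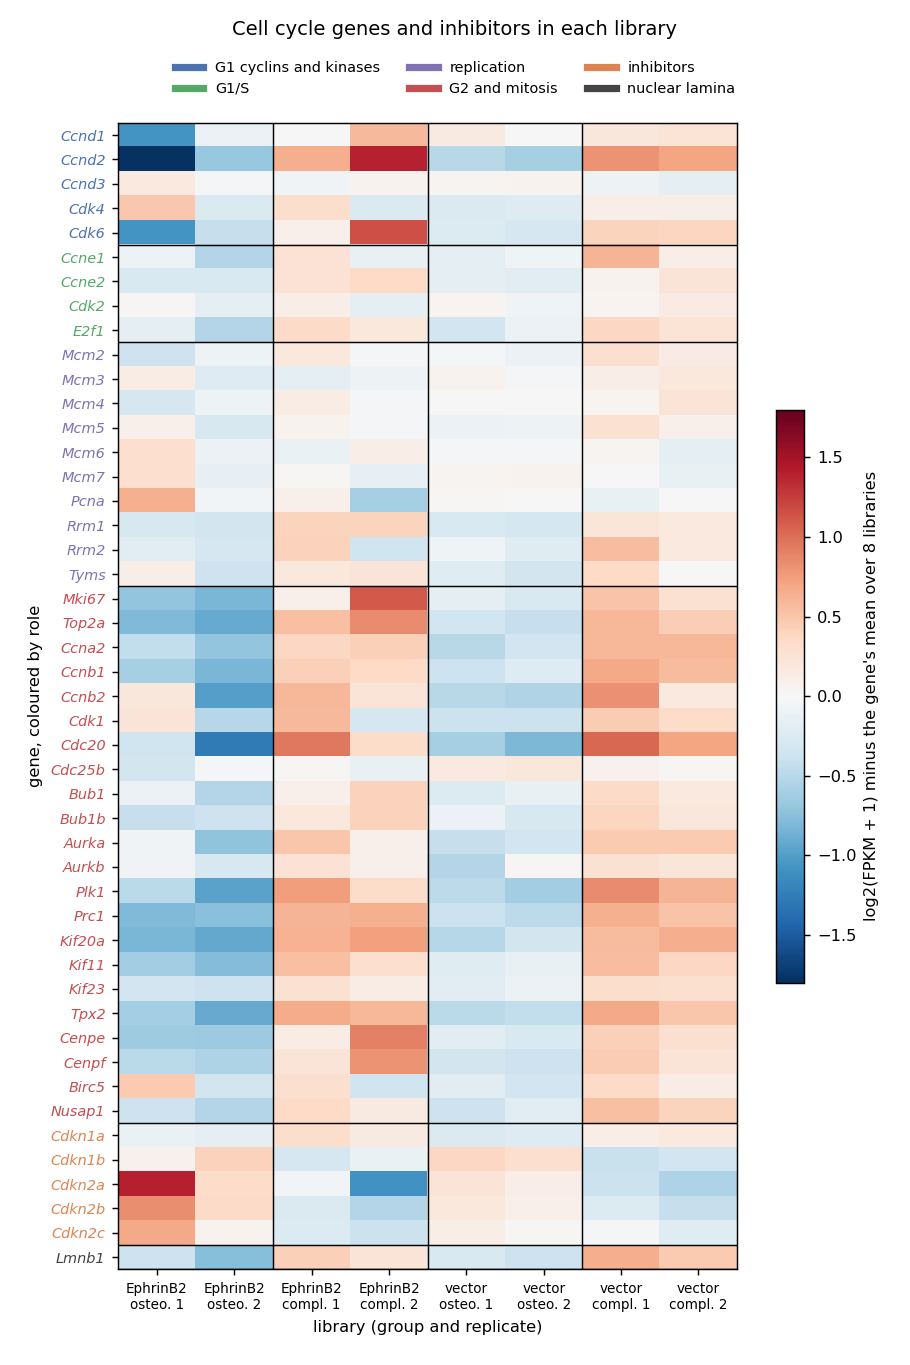
Each of the 47 genes (rows, coloured by role) in each of the 8 libraries (columns, 2 a group), as log2(FPKM + 1) minus the gene's mean over the 8 libraries, red above and blue below. Mitotic rows are mostly blue in the osteogenic and red in the complete columns, the Cdkn1b, Cdkn2a, Cdkn2b and Cdkn2c rows mostly the reverse, and the replication rows are pale.

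The order of the libraries was the same in both kinds of cell for many genes. Of the 47, 25 were lower in all 4 osteogenic than in all 4 complete libraries, where 16.8% of all genes tested were. They held 18 of the 22 mitotic genes, Kif23 among them, but Rrm1 alone of the 10 replication genes. The others were Ccnd2, Cdk6, Ccne2, E2f1, Cdkn1a and Lmnb1. In the reverse order were 4 genes, all inhibitors (Cdkn1b, Cdkn2a, Cdkn2b and Cdkn2c), where 15.9% of all genes tested were higher in all 4 osteogenic libraries. The macrophage markers moved with the medium too, with 12 of 13 risen in EphrinB2 cells and 6 of 13 in vector cells. Of all genes tested, 6.36% and 4.41% rose there. The part of these markers in these results was not tested.

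Taken as a sum, the 22 mitotic genes had 35.2 and 21.8 FPKM in EphrinB2 osteogenic libraries, against 79.2 and 74.3 FPKM in EphrinB2 complete libraries. They had 34.2 and 34.5 FPKM in vector osteogenic libraries, against 87.0 and 73.7 FPKM in vector complete libraries. The sums of the groups did not overlap between media in either kind of cell. The median mitotic gene had an osteogenic mean of 30.9% of its complete mean in EphrinB2 cells and of 42.8% in vector cells. Their median log2 fold change was -1.04 in EphrinB2 cells and -0.78 in vector cells. All levels were low. The median mitotic gene had at most 3.29 FPKM in any library, and from 22 to 1232 estimated reads per library stood behind a mitotic gene.

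Cdc20, the activator of the anaphase-promoting complex, was the most abundant mitotic gene by its mean over the 8 libraries, although Ccnb2 had a higher mean in EphrinB2 osteogenic libraries. It had 4.12 and 1.72 FPKM in EphrinB2 osteogenic libraries, against 11.6 and 7.24 FPKM in EphrinB2 complete libraries. It had 3.35 and 2.74 FPKM in vector osteogenic libraries, against 12.5 and 9.75 FPKM in vector complete libraries. All 4 osteogenic libraries lay below all 4 complete ones. It fell in EphrinB2 cells (log2 fold change -1.45, SE 0.34, adjusted p = 0.0401) and in vector cells (-1.58, SE 0.34, adjusted p = 0.0390). With both libraries that stood apart left out, the change in EphrinB2 cells was -2.22 (adjusted p = 0.00355). Plk1, the kinase of mitotic entry and spindle assembly, had 2.10 and 1.23 FPKM in EphrinB2 osteogenic, against 6.34 and 4.44 FPKM in EphrinB2 complete libraries. In vector cells Plk1 had 2.14 and 1.81 FPKM in osteogenic, against 6.87 and 5.65 FPKM in complete libraries. It fell by 1.27 (SE 0.23) in EphrinB2 cells and by 1.28 (SE 0.23) in vector cells on the log2 scale.

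Top2a, the topoisomerase that untangles sister chromosomes, had 1.57 and 1.39 FPKM in EphrinB2 osteogenic libraries, against 5.51 and 7.06 FPKM in EphrinB2 complete libraries. It had 2.52 and 2.34 FPKM in vector osteogenic libraries, against 5.75 and 5.08 FPKM in vector complete libraries. As for Cdc20, all 4 osteogenic libraries lay below all 4 complete ones. It fell in EphrinB2 cells (-1.55, SE 0.15, adjusted p = 0.00202) and in vector cells (-0.90, SE 0.15, adjusted p = 0.0177). Kif20a, a kinesin of the central spindle and cytokinesis, had 0.974 and 0.833 FPKM in EphrinB2 osteogenic, against 4.39 and 4.81 FPKM in EphrinB2 complete libraries. In vector cells Kif20a had 1.44 and 1.78 FPKM in osteogenic, against 4.17 and 4.46 FPKM in complete libraries. Its log2 fold change of -1.56 (SE 0.14, adjusted p = 0.00146) in EphrinB2 cells was the furthest below 0 of all mitotic genes there on the log2(FPKM + 1) scale, and it was -1.03 (SE 0.14, adjusted p = 0.00751) in vector cells.

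Mki67, which coats mitotic chromosomes and is widely used as a mark of dividing cells, had 1.40 and 1.21 FPKM in EphrinB2 osteogenic libraries, against 3.17 and 7.42 FPKM in EphrinB2 complete libraries. It had 2.51 and 2.26 FPKM in vector osteogenic libraries, against 4.61 and 3.74 FPKM in vector complete libraries. The media did not overlap in either kind of cell, and the highest value was that of EphrinB2 complete replicate 2, which stood apart. Mki67 fell in EphrinB2 cells (-1.36, SE 0.31, adjusted p = 0.0366) and did not pass in vector cells (-0.61, SE 0.31, adjusted p = 0.371). Without both libraries that stood apart the values were -0.92 (adjusted p = 0.0168) in EphrinB2 cells and -0.61 (adjusted p = 0.0139) in vector cells.

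The remaining called mitotic genes were also lower in all 4 osteogenic than in all 4 complete libraries. The cyclins Ccna2, of S phase and G2, and Ccnb1, the partner of Cdk1 at mitotic entry, changed by -0.98 and -1.11 in EphrinB2 cells and by -1.02 and -0.93 in vector cells. Among spindle genes, Prc1, which bundles microtubules of the central spindle, changed by -1.40 in EphrinB2 cells and -1.02 in vector cells. Tpx2, the spindle activator of Aurka, changed by -1.40 in EphrinB2 cells and -1.05 in vector cells. Nusap1, a microtubule-binding spindle protein, changed by -0.72 in EphrinB2 cells and -0.75 in vector cells. These 5 passed in both comparisons, with adjusted p between 0.00185 and 0.0369.

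The kinetochore and motor genes Kif11 (-1.13), Cenpe (-1.17) and Cenpf (-1.04) and the checkpoint kinase Bub1b (-0.70) fell in EphrinB2 cells, with adjusted p between 0.00729 and 0.0330. In vector cells their changes were -0.63, -0.59, -0.69 and -0.50, with adjusted p between 0.0651 and 0.270. Of these, Bub1b (adjusted p = 0.0557) and Cenpf (adjusted p = 0.0512) were no longer called in EphrinB2 cells without both libraries that stood apart. Cenpf also lost its call where the trend on gene length was removed (adjusted p = 0.174).

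The mitotic genes were not uniform. Cdc25b, a phosphatase that activates Cdk1, had overlapping media in EphrinB2 cells and log2 fold changes of -0.12 in EphrinB2 and 0.13 in vector cells. Birc5, the survivin of the chromosomal passenger complex, had 2.43 and 0.976 FPKM in EphrinB2 osteogenic against 2.01 and 0.927 FPKM in EphrinB2 complete libraries. Both media thus held a high and a low library. In vector cells Birc5 had 1.15 and 0.941 FPKM in osteogenic against 2.15 and 1.72 FPKM in complete libraries, with no overlap (-0.52, adjusted p = 0.475). Ccnb2, the other B-type cyclin, had 4.86 and 1.56 FPKM in EphrinB2 osteogenic against 6.66 and 4.99 FPKM in EphrinB2 complete libraries. Its groups did not overlap, and the change of -0.81 (SE 0.40, adjusted p = 0.217) did not pass. Cdk1, the kinase of mitosis, had 3.64 and 1.78 FPKM in EphrinB2 osteogenic against 4.92 and 2.21 FPKM in EphrinB2 complete libraries, and these overlapped. In all of these 3 genes replicate 1 of each EphrinB2 group was above replicate 2. Ccnb2 (-1.58, adjusted p = 0.0247) and Cdk1 (-1.09, adjusted p = 0.00452) were called in EphrinB2 cells without both libraries that stood apart, and so was the spindle kinase Aurka (-1.23, adjusted p = 0.00332, against -0.70, adjusted p = 0.117, with all libraries). Birc5 in EphrinB2 cells was at 0.11 with all libraries and at -0.61 (adjusted p = 0.0602) without both.

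**Figure D3:**
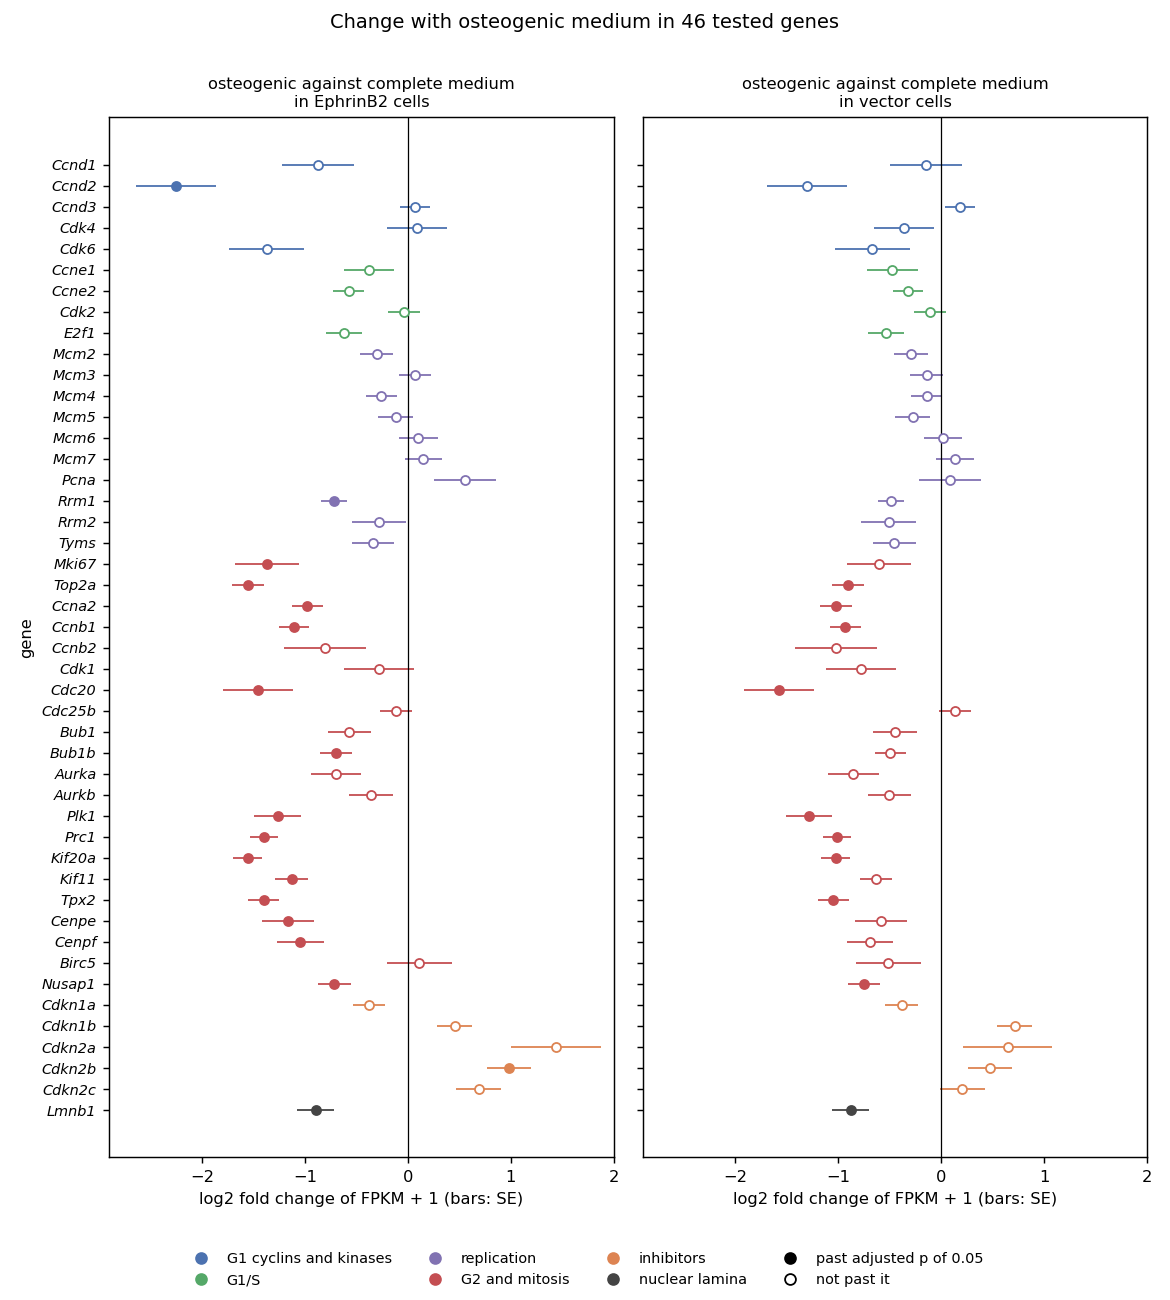
Log2 fold change of FPKM + 1 with osteogenic against complete medium in EphrinB2 cells (left) and vector cells (right) for the 46 tested genes, coloured by role, with bars of 1 SE; filled points passed an adjusted p of 0.05. Filled points are 18 on the left and 10 on the right, and all but Cdkn2b lie below 0.

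Of the 10 genes of DNA replication, 1 fell and 0 rose in EphrinB2 cells, where 5.44% of all genes tested fell and 6.36% rose, and their median was -0.19. In vector cells 0 of 10 passed, where 3.11% of all genes fell and 4.41% rose, with a median of -0.21 and 1 at an unadjusted p below 0.05. Lower in osteogenic medium without overlap were 4 of the 10 in EphrinB2 and 7 in vector cells, where 23.6% and 38.8% of all genes were. The Mcm genes, which encode the replicative helicase, ranged from -0.30 for Mcm2 to 0.15 for Mcm7 in EphrinB2 cells and from -0.30 for Mcm2 to 0.13 for Mcm7 in vector cells. Without both libraries that stood apart, Mcm7 was at -0.165 (adjusted p = 0.265) in EphrinB2 cells. Mcm5, whose promoter is shown above, had 3.23 and 2.25 FPKM in EphrinB2 osteogenic against 3.16 and 2.89 FPKM in EphrinB2 complete libraries. In vector cells Mcm5 had 2.69 and 2.74 FPKM in osteogenic against 3.81 and 3.23 FPKM in complete libraries. The media overlapped in EphrinB2 cells and not in vector cells.

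Rrm1, the large subunit of ribonucleotide reductase, was the replication gene that fell. It had 6.30 and 6.04 FPKM in EphrinB2 osteogenic libraries, against 10.7 and 10.8 FPKM in EphrinB2 complete libraries. It had 6.36 and 6.15 FPKM in vector osteogenic libraries, against 9.36 and 9.04 FPKM in vector complete libraries. The spread between partners was small and no osteogenic library reached a complete one. The change was -0.71 (SE 0.12, adjusted p = 0.0150) in EphrinB2 cells and -0.49 (SE 0.12, adjusted p = 0.0660) in vector cells. With the trend on gene length removed it was -0.36 (adjusted p = 0.246) in EphrinB2 cells. Without both libraries that stood apart it was -0.74 there. Rrm2, the small subunit, changed by -0.28 in EphrinB2 and -0.51 in vector cells, and Tyms, the thymidylate synthase, by -0.34 and -0.46. Neither gene passed in either kind of cell with all 8 libraries. With the vector libraries alone, Rrm2 (-0.51, adjusted p = 0.0474) and Rrm1 (-0.49, adjusted p = 0.0032) were called lower in vector cells, where 22.1% of all genes were.

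Pcna, the sliding clamp of DNA polymerases, was the most abundant replication gene. It had 33.2 and 20.2 FPKM in EphrinB2 osteogenic libraries, against 22.3 and 13.4 FPKM in EphrinB2 complete libraries. It had 21.3 and 21.0 FPKM in vector osteogenic libraries, against 18.9 and 21.0 FPKM in vector complete libraries. The media overlapped in both kinds of cell, and the extreme values were those of both libraries that stood apart. The change was 0.55 (SE 0.30, adjusted p = 0.249) in EphrinB2 cells and 0.08 (SE 0.30, adjusted p = 0.950) in vector cells. Without both libraries it was -0.14 (adjusted p = 0.315) in EphrinB2 cells.

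Among G1 genes, Ccnd2 had the log2 fold change furthest below 0 of all 46 in EphrinB2 cells. By the ratio of mean FPKM, Cenpf, Cenpe, Prc1 and Kif20a were lower there (10.6% to 19.7% of the complete mean, against 21.1% for Ccnd2), and in vector cells Cdc20 had the lowest log2 fold change. This D-type cyclin had 12.8 and 28.7 FPKM in EphrinB2 osteogenic libraries, against 74.0 and 123.0 FPKM in EphrinB2 complete libraries. It had 32.5 and 30.4 FPKM in vector osteogenic libraries, against 82.0 and 76.5 FPKM in vector complete libraries. Each osteogenic library lay below each complete library, and the lowest and the highest values were those of both libraries that stood apart. The change was -2.25 (SE 0.39, adjusted p = 0.0148) in EphrinB2 cells and -1.30 (SE 0.39, adjusted p = 0.110) in vector cells. Without both libraries it was -1.34 (adjusted p = 0.00166) in EphrinB2 cells and -1.30 (adjusted p = 0.000404) in vector cells. Ccnd1, another D-type cyclin, had 26.1 and 52.4 FPKM in EphrinB2 osteogenic against 55.7 and 84.5 FPKM in EphrinB2 complete libraries. In vector cells Ccnd1 had 63.1 and 55.8 FPKM in osteogenic against 65.1 and 66.9 FPKM in complete libraries. The media did not overlap within either kind of cell, but the change did not pass (-0.87, adjusted p = 0.151 in EphrinB2 cells; -0.15, adjusted p = 0.911 in vector cells). The value in EphrinB2 cells rested on the libraries used. It was -0.09 (adjusted p = 0.560) without both libraries that stood apart, -0.38 (adjusted p = 0.429) without EphrinB2 osteogenic replicate 1 and -1.36 (adjusted p = 0.0149) without its replicate 2.

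The other G1 genes did not pass either with all 8 libraries. Ccnd3 changed by 0.07 in EphrinB2 and 0.18 in vector cells. Cdk6 had 3.59 and 6.28 FPKM in EphrinB2 osteogenic against 9.32 and 20.6 FPKM in EphrinB2 complete libraries (-1.37, adjusted p = 0.0585). It had 7.15 and 6.86 FPKM in vector osteogenic against 11.8 and 11.6 FPKM in vector complete libraries (-0.67, adjusted p = 0.407). Without both libraries that stood apart, Cdk6 was called lower in EphrinB2 cells (-0.50, adjusted p = 0.0105) and in vector cells (-0.67, adjusted p = 0.00128), and with the trend on gene length removed in EphrinB2 cells (-0.93, adjusted p = 0.0217). Cdk4, which also pairs with D-type cyclins, had log2 fold changes of 0.09 (adjusted p = 0.846) in EphrinB2 cells and -0.36 (adjusted p = 0.631) in vector cells. Without both libraries its sign in EphrinB2 cells turned and it was called lower in both, at -0.57 (adjusted p = 0.00491) in EphrinB2 and -0.36 (adjusted p = 0.00408) in vector cells. The 5 G1 genes had a median of -0.87 in EphrinB2 cells and -0.36 in vector cells. The median in EphrinB2 cells is the value of Ccnd1, and it was -0.50 without both libraries that stood apart. Of the 5, 1 fell in EphrinB2 and 0 in vector cells, where 5.44% and 3.11% of all genes tested fell.

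At the step from G1 to S none of the 4 genes passed in either kind of cell. Of all genes tested, 11.8% passed in EphrinB2 and 7.52% in vector cells. E2f1, which switches on replication genes, had 6.08 and 4.57 FPKM in EphrinB2 osteogenic libraries, against 9.16 and 8.17 FPKM in EphrinB2 complete libraries. It had 5.31 and 6.45 FPKM in vector osteogenic libraries, against 9.44 and 8.52 FPKM in vector complete libraries. All 4 osteogenic libraries were below all 4 complete ones, and the changes of -0.62 (SE 0.18, adjusted p = 0.0689) and -0.54 (SE 0.18, adjusted p = 0.139) missed the threshold. E2f1 was called without both libraries that stood apart, in EphrinB2 cells (-0.87, adjusted p = 0.0170) and in vector cells (-0.54, adjusted p = 0.0167). The E-type cyclins Ccne1 and Ccne2 changed by -0.38 and -0.58 in EphrinB2 cells and by -0.48 and -0.33 in vector cells. Ccne2 was called in EphrinB2 cells with the trend on gene length removed (-0.68, adjusted p = 0.0331). Their kinase Cdk2 changed by -0.04 in EphrinB2 cells and -0.11 in vector cells. The 4 genes had medians of -0.48 in EphrinB2 cells and -0.40 in vector cells.

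The inhibitors did not move as 1 group. Cdkn2b, an inhibitor of Cdk4 and Cdk6, had 56.5 and 39.9 FPKM in EphrinB2 osteogenic libraries, against 25.9 and 21.3 FPKM in EphrinB2 complete libraries. It had 35.8 and 33.2 FPKM in vector osteogenic libraries, against 26.2 and 23.1 FPKM in vector complete libraries. Every osteogenic library was above every complete one. Cdkn2b rose in EphrinB2 cells (0.98, SE 0.21, adjusted p = 0.0318) and did not pass in vector cells (0.47, SE 0.21, adjusted p = 0.30). Without both libraries that stood apart the values were 0.60 (adjusted p = 0.0205) in EphrinB2 cells and 0.47 (adjusted p = 0.0112) in vector cells.

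Cdkn2a, whose locus encodes both a Cdk4 and Cdk6 inhibitor and the p53 activator Arf that FPKM per gene cannot separate, had 87.5 and 41.2 FPKM in EphrinB2 osteogenic libraries, against 31.5 and 14.7 FPKM in EphrinB2 complete libraries. It had 38.3 and 35.4 FPKM in vector osteogenic libraries, against 24.8 and 21.8 FPKM in vector complete libraries. The media did not overlap, yet partners differed by more than 2-fold in both EphrinB2 groups. The change was 1.44 (SE 0.44, adjusted p = 0.0823) in EphrinB2 cells and 0.64 (SE 0.44, adjusted p = 0.535) in vector cells. Without both libraries it was 0.38 (adjusted p = 0.0693) in EphrinB2 cells and 0.64 (adjusted p = 0.00514) in vector cells. With the trend on gene length removed it was called in EphrinB2 cells, at 1.07 (adjusted p = 0.0337). Cdkn2c, of the same family, had 14.6 and 9.17 FPKM in EphrinB2 osteogenic against 7.17 and 6.43 FPKM in EphrinB2 complete libraries. In vector cells Cdkn2c had 9.54 and 8.85 FPKM in osteogenic against 8.44 and 7.30 FPKM in complete libraries. Its changes were 0.69 (adjusted p = 0.0927) in EphrinB2 and 0.20 (adjusted p = 0.752) in vector cells.

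Cdkn1b, an inhibitor of Cdk2 in resting cells, had 18.6 and 23.6 FPKM in EphrinB2 osteogenic libraries, against 14.0 and 16.04 FPKM in EphrinB2 complete libraries. It had 22.9 and 21.7 FPKM in vector osteogenic libraries, against 13.01 and 13.5 FPKM in vector complete libraries. The 4 osteogenic libraries were all above the 4 complete ones. The changes of 0.46 (SE 0.17, adjusted p = 0.130) in EphrinB2 and 0.71 (SE 0.17, adjusted p = 0.0552) in vector cells did not pass. Both did once the libraries that stood apart were left out, at 0.71 (adjusted p = 0.00485) and 0.71 (adjusted p = 0.00121). Cdkn1b was the inhibitor whose replicate 1 was below replicate 2 in both EphrinB2 groups.

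Cdkn1a, the p53-induced inhibitor and the most abundant of the 47 genes by its mean over the 8 libraries, lay in the other direction. It had 79.0 and 76.3 FPKM in EphrinB2 osteogenic libraries, against 106.3 and 96.2 FPKM in EphrinB2 complete libraries. It had 71.5 and 72.6 FPKM in vector osteogenic libraries, against 92.6 and 96.5 FPKM in vector complete libraries. All 4 osteogenic libraries were below all 4 complete ones, with osteogenic means of 76.7% and 76.2% of the complete means in EphrinB2 and vector cells. The changes of -0.38 (SE 0.16, adjusted p = 0.164) and -0.39 (SE 0.16, adjusted p = 0.241) did not pass, and did without both libraries that stood apart (adjusted p = 0.00861 and 0.00388).

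**Figure D4:**
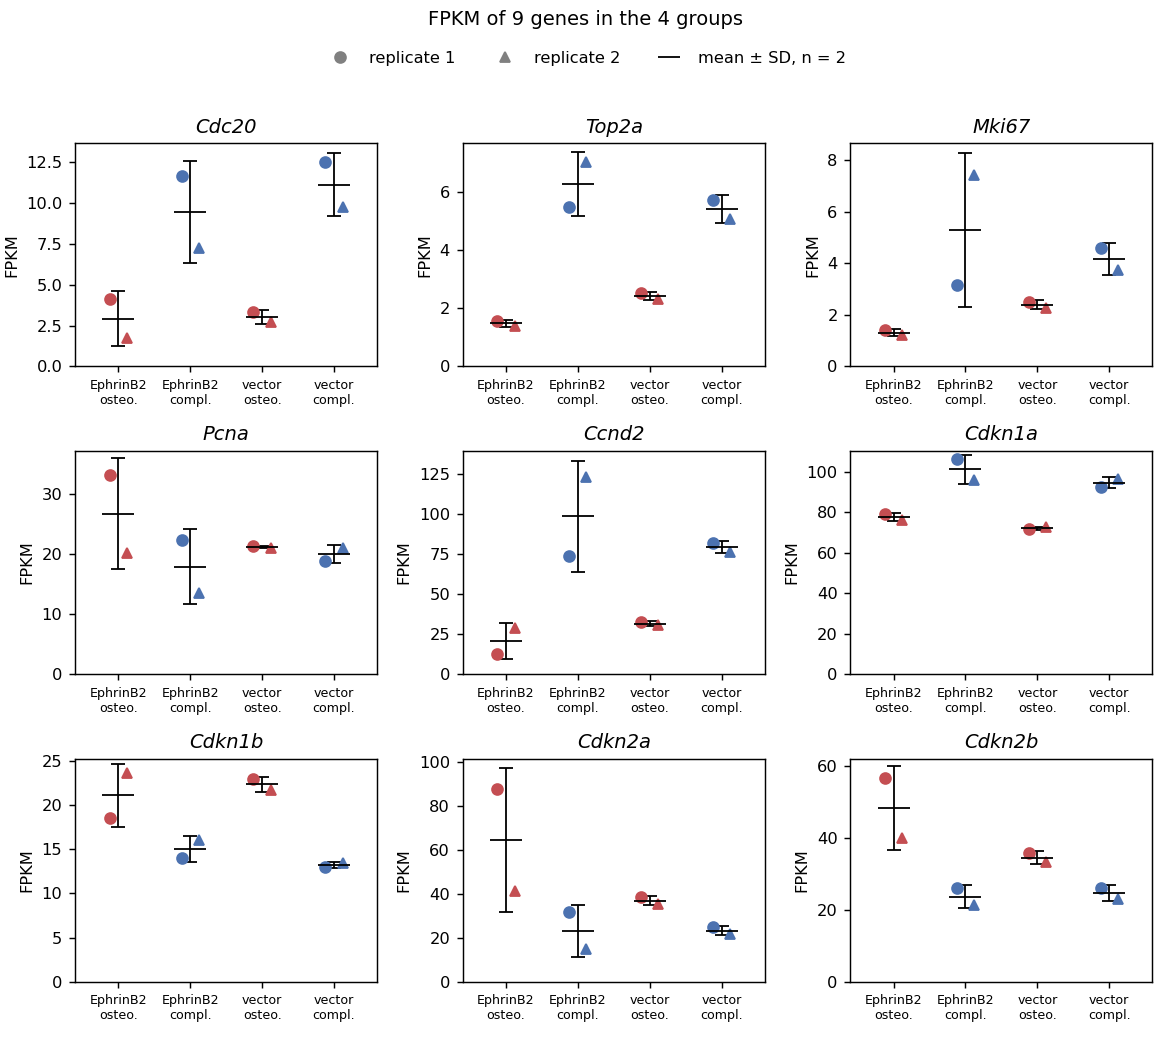
FPKM of 9 genes in the 4 groups, with circles for replicate 1, triangles for replicate 2 and the mean ± SD of n = 2; red is osteogenic and blue complete medium. Cdc20, Top2a, Mki67, Ccnd2 and Cdkn1a are lower and Cdkn1b, Cdkn2a and Cdkn2b higher in every red than in every blue point, and Pcna overlaps.

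Lmnb1, the lamin whose loss is widely used as a mark of senescent cells, had 2.27 and 1.49 FPKM in EphrinB2 osteogenic libraries, against 4.70 and 3.93 FPKM in EphrinB2 complete libraries. It had 2.49 and 2.25 FPKM in vector osteogenic libraries, against 5.62 and 4.83 FPKM in vector complete libraries. No osteogenic library overlapped a complete one. It fell in EphrinB2 cells (-0.90, SE 0.18, adjusted p = 0.0241, and -1.20, adjusted p = 0.00567, without both libraries that stood apart) and in vector cells (-0.88, SE 0.18, adjusted p = 0.0319).

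Genes beyond the 47 were described from 4 further lists. Their counts stand beside the 5.44% of all genes tested that fell and the 6.36% that rose in EphrinB2 cells, and the 3.11% that fell and 4.41% that rose in vector cells. Of 44 tested mitotic genes, 16 fell and 0 rose in EphrinB2 cells and 7 fell and 0 rose in vector cells, with medians of -0.61 and -0.59. Of those that fell in EphrinB2 cells, the furthest below 0 were the spindle gene Ckap2 (-1.51), its relative Ckap2l (-1.45), Hmmr (-1.44) and the condensin subunit Smc2 (-1.03). Of those that fell in vector cells they were Ckap2 (-1.26), Ckap2l (-1.25), Cdca3 (-1.02) and Hmmr (-0.95). Of 37 tested replication genes, Uhrf1 alone fell in EphrinB2 cells (-0.77, adjusted p = 0.0192) and 0 passed in vector cells, where 2 had an unadjusted p below 0.05. Their medians were 0.02 and -0.06.

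A mixed list held pocket proteins, E2F and DREAM factors and other regulators. Besides brakes it held Cdk5, Cdk7, Ccnh, E2f3, Tfdp1 and Tfdp2, so its counts and medians do not describe brakes alone. Of its 24 tested genes, 3 rose and 0 fell in each kind of cell. Of all genes, 6.36% rose in EphrinB2 and 4.41% in vector cells. The medians of the 24 were 0.40 in EphrinB2 and 0.10 in vector cells. Cdkn1c, a Cdkn1 inhibitor outside the 47, averaged 53.6 ± 17.0 FPKM in EphrinB2 osteogenic and 0.693 ± 0.097 FPKM in EphrinB2 complete libraries (SD, n = 2 each). It averaged 33.7 ± 1.0 FPKM in vector osteogenic and 0.421 ± 0.299 FPKM in vector complete libraries (SD, n = 2 each). Its fold was thus far above that of any Cdkn gene of the 47, and it rose in both (adjusted p = 0.000179 and 0.000245). The repressive E2F factor E2f6 rose by 1.32 in EphrinB2 and 1.20 in vector cells. The DREAM subunit Lin52 rose in EphrinB2 cells (1.09) and had 0.54 in vector cells, and the E2F partner Tfdp2 rose in vector cells (1.35) and had 0.93 in EphrinB2 cells. A p53 list of 16 genes held Trp53 beside p53 targets. Of the 16, 2 rose (Sesn1 and Perp) and 5 fell (Eda2r, Plk2, Sesn2, Ccng1 and Zmat3) in EphrinB2 cells. Of all genes, 6.36% rose and 5.44% fell there. In vector cells the same 2 rose and Plk2 fell, where 4.41% and 3.11% of all genes did. Trp53 itself, which encodes p53, changed by 0.12 in EphrinB2 and -0.17 in vector cells and did not pass.

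Between EphrinB2 and vector cells none of the 46 genes passed the threshold in either medium. In complete medium 0 of 46 were called and 0 had an unadjusted p below 0.05, where 0.0077% of all genes tested passed. The median was -0.07 and the range -0.34 (Rrm2) to 0.27 (Ccnd2). In osteogenic medium 0 of 46 were called, where 0% of all genes passed by adjusted p. By unadjusted p, 5 of 46 were below 0.05, and the share of all genes there is not given. Those 5 were the mitotic genes Kif11 (-0.53), Top2a (-0.47), Kif20a (-0.45), Ccnb1 (-0.40) and Prc1 (-0.34). Each was lower in both EphrinB2 osteogenic than in both vector osteogenic libraries, with adjusted p = 0.567. With the trend on gene length removed, Kif11 was at -0.37, Top2a at -0.24, Kif20a at -0.48, Ccnb1 at -0.44 and Prc1 at -0.15. In all, 12 of 21 tested mitotic genes lay lower without overlap there, where 22.3% of all genes did. Both comparisons share libraries with the comparisons of media.

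Leaving out EphrinB2 osteogenic replicate 2 left that group with replicate 1, which stood apart, and 4 genes were then called in osteogenic medium, where 21.1% of all genes were. The cyclins Ccnd1 (-1.16) and Ccnd2 (-1.23) were lower and Cdkn2b (0.70) and Cdkn2c (0.61) higher in EphrinB2 cells. Leaving out replicate 1 in its place gave 0 calls among the 46, where 0.0077% of all genes passed.

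No difference in the response to medium between EphrinB2 and vector cells passed the test of the interaction. Of the 46 genes 0 were called, where 0% of all genes were, and 2 had an unadjusted p below 0.05. These were Top2a (-0.65, SE 0.22, adjusted p = 0.746) and Kif20a (-0.53, SE 0.20, adjusted p = 0.746). With the trend on gene length removed, Top2a was at -0.38 and Kif20a at -0.55. The 8 genes called in EphrinB2 cells but not in vector cells (Ccnd2, Rrm1, Mki67, Bub1b, Kif11, Cenpe, Cenpf and Cdkn2b) are therefore not shown to differ between them, with adjusted p between 0.746 and 0.747.

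Partner libraries differed more in EphrinB2 than in vector cells. The SD over the 46 genes of the log2 difference between replicate 1 and replicate 2 was 0.46 in EphrinB2 osteogenic and 0.46 in EphrinB2 complete, against 0.13 in vector osteogenic and 0.16 in vector complete libraries. In EphrinB2 cells this difference followed the length of the gene. Across the 46 genes, which are not independent replicates, Spearman's rho with merged exon length was -0.61 in EphrinB2 osteogenic and -0.69 in EphrinB2 complete libraries, beside -0.51 and -0.44 over all genes. In vector cells it was 0.00 and -0.12. The extremes were Ccnb2 at 1.20 and Ccnd2 at -1.10 in EphrinB2 osteogenic, and Cdkn2a at 1.05 and Cdk6 at -1.06 in EphrinB2 complete libraries. Ccnb2 and Cdkn2a are short, at 1531 and 1172 bases of exon, and Ccnd2 and Cdk6 long, at 9409 and 13989. With the trend on length removed from each library, 16 of the 18 calls in EphrinB2 cells and all 10 in vector cells remained.

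**Figure D5:**
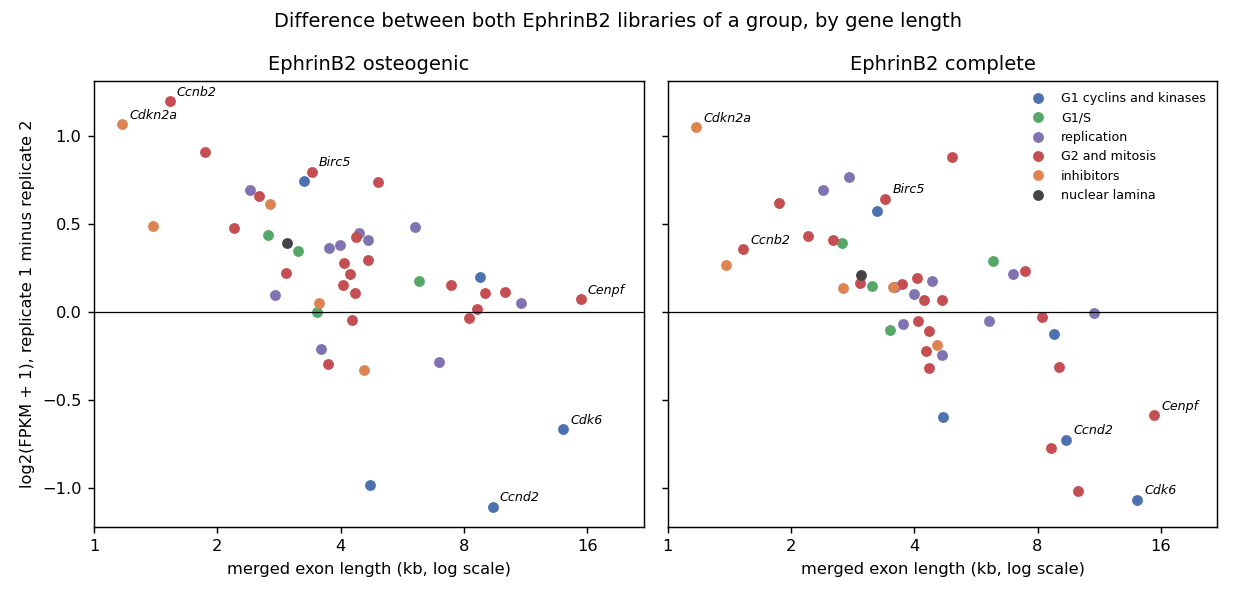
Difference in log2(FPKM + 1) between replicate 1 and replicate 2 of EphrinB2 osteogenic (left) and EphrinB2 complete (right), against merged exon length in kilobases on a log axis, 1 point for each of the 46 tested genes, coloured by role. The short genes Cdkn2a and Ccnb2 lie above 0 and the long genes Ccnd2 and Cdk6 below it in both panels, while other long genes such as Mki67 and Cenpf lie near 0 on the left (0.12 and 0.07) and below it on the right (-1.01 and -0.59).

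The strand setting of the counts is not given, and 16 of the 47 genes have exons that overlap exons of another gene on the opposite strand, among them Ccnd1, Ccnd2, Cdc20, Plk1, Prc1, Ccna2 and Cdkn1a. Reads of such pairs cannot be told apart without strand. Mcm7 and Top2a hold exons of small RNA genes on their own strand.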

How the data were processed

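RNA of 8 libraries was sequenced, and the authors deposited 1 FPKM value per gene and library for 54532 Ensembl genes. The submitters' processing notes name build mm10, DESeq2 1.16.1, HISAT2 2.0.5, CASAVA and featureCounts 1.5.0-p3, without their roles. No source used here gives the strand setting, annotation release or filters. Symbols, exon lengths and overlaps came from GENCODE M21 on GRCm38 (54495 identifiers matched, 37 did not).

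The depths come from the smallest step of FPKM times exon length. Below 50 reads, 98.1% to 98.3% of genes lay on whole steps (tolerance 0.02). Read numbers cover counting error only. FPKM is not a count, so no count model was used. Genes with at least 1 FPKM in at least 2 libraries (12994) were analysed as log2(FPKM + 1) in limma 3.58.1 (R 4.3.3) with a mean per group, a mean-variance trend, two-sided moderated tests and Benjamini-Hochberg adjustment over all of them at 0.05. There were 4 residual and 2.72 prior degrees of freedom. The steps were run on simulated data without a trend on gene length. Changes were planted there only in genes above the level of most mitotic genes, so genes that low were not covered. Replicate numbers follow listed order and pair nothing.

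The 47 genes, their roles, the 4 further lists and the cell type markers were chosen with earlier results of these data known, and support nothing by their choice. Genes named with values are those past the threshold, the 2 most abundant of each role, Mki67, all Cdkn genes and up to 4 called genes of each further list. The other members, Trp53 and the printed promoters were chosen after their values were seen.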

Additional observations from a re-analysis of the deposited data

Results flagged for a closer look

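Ccne2, an E-type cyclin, was higher in both EphrinB2 than in both vector libraries in complete medium and lower in both in osteogenic medium. The changes were 0.16 and -0.09 on the log2 scale. The test of the difference itself, the interaction, gave -0.25 (SE 0.21, adjusted p = 0.746) and did not pass. Its levels were 0.682 and 0.683 FPKM in EphrinB2 osteogenic against 0.7982 and 0.7833 FPKM in vector osteogenic libraries, and 1.42 and 1.60 FPKM in EphrinB2 complete against 1.11 and 1.38 FPKM in vector complete libraries, on 46 to 96 estimated reads. Groups of 2 libraries are too small for a test of outlying samples.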

How the results depend on the processing

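No paired analysis was possible because the labels give no replicate numbers shared between groups. In EphrinB2 cells 18 of the genes passed between media, where 11.8% of all genes tested did. That count was 9 with no filter on low values (47 genes tested), where 3.51% of all genes passed. It was 0 with the EphrinB2 libraries alone and 23 with the trend on gene length removed, where 1.18% and 17.3% did. It ranged from 7 to 23 when each library was left out in turn, with 7 without EphrinB2 complete replicate 2 and 9 without any 1 vector library. In vector cells 10 passed. That count was 6 with no filter, 30 with the vector libraries alone, 15 with the length trend removed and 29 without both libraries that stood apart. It ranged from 0 to 16 over the libraries left out, with 0 without any 1 vector library and 16 without either EphrinB2 osteogenic replicate. EphrinB2 against vector cells in osteogenic medium had 0 calls and ranged from 0 to 4, with 4 without EphrinB2 osteogenic replicate 2. Where a group kept 1 library, it was assumed to vary like the others. The share of all genes that passed shifted across these settings too, and the causes were not tested. Counts with single libraries left out stand here without that share. They do not show how these genes moved apart from all genes. EphrinB2 against vector cells in complete medium and the interaction had 0 calls under every alternative run. Rescaling the libraries shifted each by at most 0.05 on the log2 scale and changed no call, and a pseudocount of 0.1 FPKM ended 1.

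Over 54 results for single genes, 756 values under alternatives gave 563 on the same side of the threshold, 55 newly past it, 134 no longer past it and 4 of reversed sign. Cdk2 in EphrinB2 cells (-0.04) was 0.10 with the length trend removed and ranged from -0.18 to 0.11 over the libraries left out, with 0.11 without EphrinB2 complete replicate 1 and 0.05 without EphrinB2 osteogenic replicate 2. Pcna in EphrinB2 cells (0.55) was -0.14 without both libraries that stood apart. The 54 results do not cover all genes, so the changes of sign given above for Cdk4, Mcm7 and Birc5 are not among the 4. Bub1, the mitotic gene with the fewest reads, rested on 22 to 107 estimated reads per library, which limits the precision of its values.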
